A study of Mus musculus with 24 samples.

Results

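The apolipoprotein gene cluster Apoa1-Apoc3-Apoa4-Apoa5 on mouse chromosome 9 was examined for acetylation of histone H3 at lysine 27 (H3K27ac) in whole liver. Its members were all regions of the deposited H3K27ac table that are assigned to Apoa1, Apoc3, Apoa4 or Apoa5 by the nearest transcription start site. The rule found 18 of 63686 regions, of which 15 carried Apoa1, 1 carried Apoa4, 2 carried Apoa5 and 0 carried Apoc3. The nearest start site does not show which gene a region regulates. The measurements come from chromatin immunoprecipitation and sequencing (ChIP-seq), and every value is a normalized number of reads per region.

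The 4 genes encode proteins of plasma lipoproteins. Apoa1 encodes the main protein of high-density lipoprotein (HDL) and is made by liver and small intestine. Apoc3 encodes an inhibitor of lipoprotein lipase, Apoa5 encodes a liver protein that promotes triglyceride clearance through that lipase, and Apoa4 encodes an apolipoprotein secreted with triglyceride-rich particles, largely by the intestine. H3K27ac marks active promoters and enhancers, and the liver changes its lipoprotein secretion between fasting and feeding.

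The 12 libraries fell into 4 groups of 3: knockout refed, control refed, knockout fasted and control fasted. All mice were male C57BL/6J animals with both Gata4 alleles floxed (Gata4 fl/fl). GATA4 is a DNA-binding protein that hepatocytes use to regulate their genes. Knockout mice (Gata4LKO) had received the adeno-associated virus AAV8-Tbg-Cre, and control mice an AAV8 without insert. The virus was given at 8 weeks, and the mice were killed 7 days after it, aged 9 weeks. The Tbg promoter drives Cre in hepatocytes, so the remaining liver cell types retain Gata4. Refed mice went without food for 12 h during the day and then ate a diet with 69% sucrose and 10% fat for 12 h overnight. Fasted mice went without food for 12 h overnight, and all mice were killed in the same morning window. Feeding state therefore also differs in when the fast took place. The labels tell the libraries of a group apart by a letter after a number that all of them share and that differs between groups. What the number stands for is not stated, and whatever libraries of a number share cannot be told apart from group. The labels do not say that each library is a separate mouse, so p-values measure the spread between libraries.

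Reads in regions numbered 22.3 to 23.6 M in knockout refed, 27.4 to 30.4 M in control refed, 23.1 to 25.3 M in knockout fasted and 22.2 to 27.8 M in control fasted libraries. The first principal component of all regions, with 47.3% of the variance, separated feeding states, and the second, with 11.3%, separated genotypes. At Gata4 itself the strongest region held 5124, 5589 and 5756 normalized reads in knockout refed, against 5161, 5036 and 4745 in control refed libraries, and 4157, 4177 and 3879 in knockout fasted, against 3464, 3535 and 3784 in control fasted libraries. Acetylation of this region did not pass the test for knockout in refed (log2 change 0.14 ± 0.06, adjusted p = 0.267) or fasted liver (0.18 ± 0.06, adjusted p = 0.227, limma, ± SE), and it does not measure the deletion. Markers of hepatocytes had the densest signal among the marker lists, with a median of 239 normalized reads per kb over 9 of 10 listed genes. The medians were 123 for endothelial, 91.8 for enterocyte, 88.1 for cholangiocyte, 59.3 for stellate and 39.2 for Kupffer and macrophage markers. In whole liver, fewer cells of a type and less signal per cell cannot be told apart.

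Most of the signal of the cluster lay in 3 wide regions. The Apoa1-Apoa4 domain (mm9, chr9:46001223-46057235) spans 56013 bp, from 35.5 kb upstream to 20.5 kb downstream of the Apoa1 start site, and holds the start sites of Apoa1 and Apoa4. It is annotated to exon 24 of 25 of the neighbouring gene Sik3, which encodes a salt-inducible kinase. In the RefSeq gene order Apoc3 lies between Apoa1 and Apoa4, so Apoc3 falls within this domain by order, although no region carries its name. The Apoa4-Apoa5 interval (mm9, chr9:46060803-46073223) is intergenic and spans 12421 bp. The Apoa5 region (mm9, chr9:46073640-46083089) spans 9450 bp, holds the Apoa5 start site and is annotated to exon 4 of 4 of Apoa5. A weak intergenic region of 1424 bp (mm9, chr9:46059250-46060673) is the only one assigned to Apoa4. The other 14 regions carry the name Apoa1 but lie in introns 1 to 6 of Sik3, 37.2 to 108.7 kb upstream of the Apoa1 start site, and are numbered here in genome order as Sik3 intron regions 1 to 14.

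The 250 bases upstream of the Apoa1, Apoa4 and Apoa5 start sites are shown because these promoters lie inside the acetylated domain and the Apoa5 region. The sequences are from RefSeq (GRCm38.p6, plus strand), 5′ to 3′, and cover chr9:46228380-46228629, chr9:46240594-46240843 and chr9:46268358-46268607 of that build. Capitals mark matches, on either strand, to a GATA motif (the letters GATA after A or T and before A or G), an HNF4 motif (CAAAGNNCA), an E-box (CACGTG) or a TATA box (TATAAA).
Apoa1: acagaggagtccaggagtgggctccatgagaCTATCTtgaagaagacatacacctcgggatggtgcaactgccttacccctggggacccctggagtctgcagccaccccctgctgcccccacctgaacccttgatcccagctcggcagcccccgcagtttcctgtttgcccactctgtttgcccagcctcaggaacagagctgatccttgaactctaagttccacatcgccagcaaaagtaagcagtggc
Apoa4: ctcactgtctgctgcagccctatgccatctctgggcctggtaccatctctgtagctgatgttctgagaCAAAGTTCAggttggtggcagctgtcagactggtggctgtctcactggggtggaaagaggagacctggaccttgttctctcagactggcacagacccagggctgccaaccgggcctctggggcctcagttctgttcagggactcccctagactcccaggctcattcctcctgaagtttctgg
Apoa5: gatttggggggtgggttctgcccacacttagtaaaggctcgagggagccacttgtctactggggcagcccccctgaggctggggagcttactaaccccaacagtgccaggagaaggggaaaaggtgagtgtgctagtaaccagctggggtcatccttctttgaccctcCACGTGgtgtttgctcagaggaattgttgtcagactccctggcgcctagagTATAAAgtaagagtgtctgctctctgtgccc
The Apoa1 window held 1 GATA match, CTATCT on the plus strand, 219 bases before the start, and 26.5% of 32851 windows of this length held such a match. The Apoa4 window held 1 HNF4 match, CAAAGTTCA, 182 bases before the start (5.49% of windows). The Apoa5 window held an E-box 82 bases before the start (6.02% of windows) and a TATA box 31 bases before it (12.4% of windows). The nuclear receptor half-site AGGTCA was not in the letters of any of the 3 windows, and 14.0% of all windows held it. A match is a description of the letters and not a bound site.

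**Figure D1:**
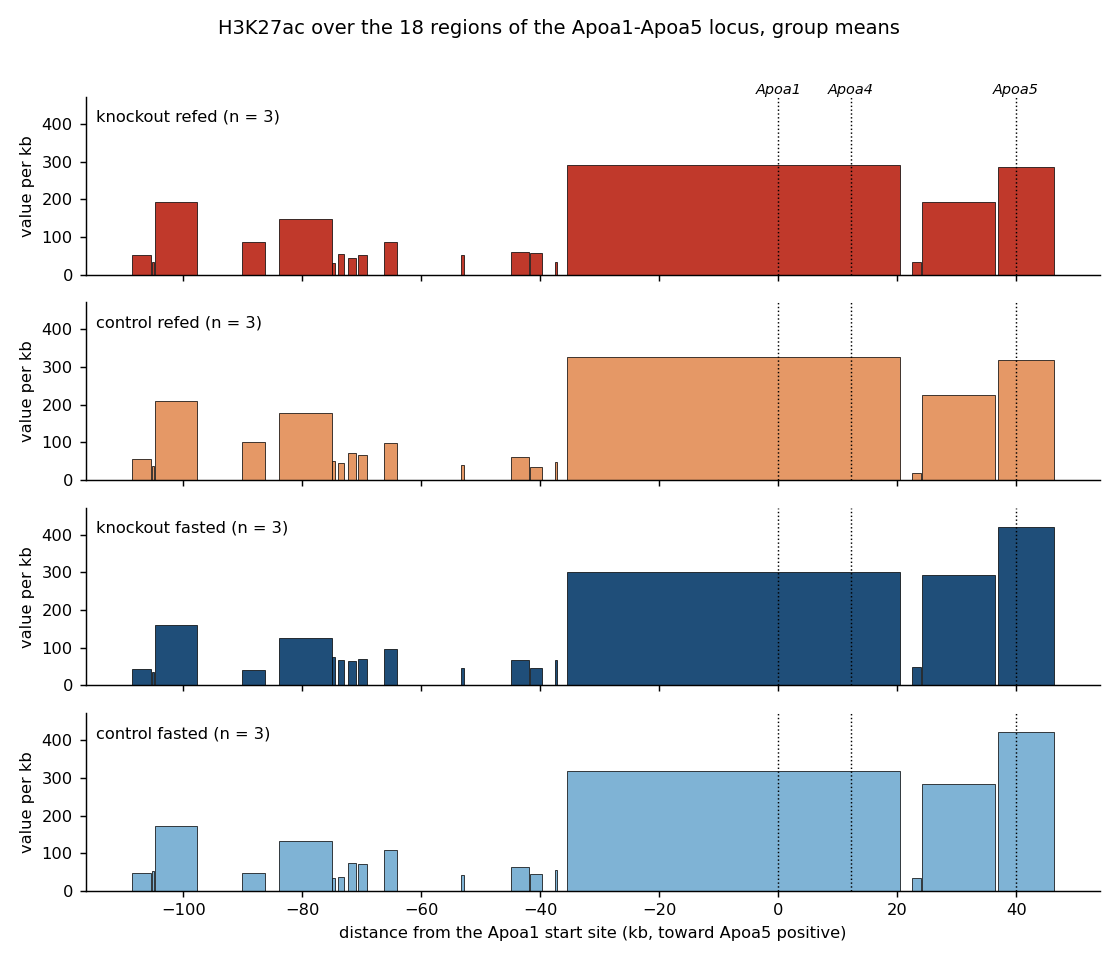
H3K27ac over the 18 regions, as the group mean of normalized reads per kb of region (vertical axis, n = 3 libraries each) against the distance from the Apoa1 start site in kb (horizontal axis), with 1 panel per group. Dotted lines mark the start sites of Apoa1, Apoa4 and Apoa5. The Apoa5 region stood at 285 in knockout refed and 318 in control refed, against 420 in knockout fasted and 421 in control fasted liver, while the Apoa1-Apoa4 domain stayed between 292 and 327.

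By total signal, which grows with width, the domain was among the strongest acetylated regions of the liver. With a mean of 17336 normalized reads over the 12 libraries it ranked 11 of 63686 by total signal and 14 by width. By signal per kb the domain ranked 2491 and the Apoa5 region 1214. The 18 regions together took 24102 to 31623 normalized reads per library (median 27500), which is 0.0948% to 0.124% of all reads in regions, and the domain held 58.4% to 65.7% of that sum. Per length the order was different, with 361 normalized reads per kb in the Apoa5 region, 310 in the domain and 248 in the Apoa4-Apoa5 interval. Next came Sik3 intron region 3 with 184 and Sik3 intron region 5 with 146, and the lowest density was 33.6 in the weak Apoa4 region. The order at the top depended on feeding state. In refed liver the domain and the Apoa5 region had similar densities, 292 and 285 in knockout and 327 and 318 in control liver, while in fasted liver the Apoa5 region was denser, with 420 against 302 in knockout and 421 against 318 in control liver. Of the 18 regions, 10 had a mean at or above 90.6, the mean of the median region, and the other 8 held 15.2 to 89.4.

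Refed and fasted libraries were compared within each genotype to see how a sucrose-rich meal after a fast goes with acetylation. At the Apoa5 region, knockout libraries held 2534, 2444 and 3111 normalized reads when refed, against 3796, 3934 and 4182 when fasted. Control libraries held 3574, 2464 and 2968 when refed, against 4129, 3807 and 3996 when fasted. Every refed library was below every fasted one in both genotypes. The region fell with refeeding in knockout (log2 change -0.57 ± 0.11 SE, 95% interval -0.81 to -0.32, adjusted p = 0.00213) and in control liver (-0.42 ± 0.11, -0.66 to -0.18, adjusted p = 0.011), by limma with Benjamini-Hochberg adjustment over all regions. Without control refed replicate 2, the lowest library of its group, the change in control liver was -0.29 and no longer passed (adjusted p = 0.0589). The difference between the genotypes was -0.14 ± 0.16 and did not pass the test (interaction, limma adjusted p = 0.841). From low to high the group means were 2696 ± 362 in knockout refed, 3002 ± 556 in control refed, 3970 ± 196 in knockout fasted and 3977 ± 161 in control fasted liver (SD, n = 3), and the genotypes differed by less than their spread in either state.

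The Apoa4-Apoa5 interval, which lies between the weak Apoa4 region and the Apoa5 region, gave changes of the same sign as the Apoa5 region. Knockout libraries held 2337, 2069 and 2783 normalized reads when refed, against 3435, 3642 and 3806 when fasted. Control libraries held 3405, 2188 and 2778 when refed, against 3971, 3312 and 3309 when fasted. The feeding states did not overlap in knockout liver, while in control liver the highest refed library lay above the lowest 2 fasted ones. The interval fell in knockout liver (-0.61 ± 0.14, 95% interval -0.90 to -0.32, limma adjusted p = 0.00441). In control liver the log2 change of -0.36 ± 0.14 (-0.65 to -0.07) did not pass (limma adjusted p = 0.0597), and it passed when control refed replicate 1 (-0.51, adjusted p = 0.00813) or knockout refed replicate 3 (-0.36, adjusted p = 0.0479) was left out. The interaction was -0.25 ± 0.19 (limma adjusted p = 0.739), so a difference between genotypes was not shown.

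Beside the falls at Apoa5, marker genes of liver cells also moved with feeding. Of 9 measured hepatocyte markers, 6 were lower with refeeding in knockout and 4 in control liver, and 0 were higher in either. Over the strongest regions of all genes, 10.6% were called lower and 22.6% higher with refeeding in knockout, and 12.2% lower and 21.2% higher in control liver. The summed hepatocyte marker signal was 39848 to 40955 in knockout refed and 43218 to 46542 in control refed, against 47342 to 51137 in knockout fasted and 48612 to 54026 in control fasted libraries. Of 6 measured cholangiocyte markers, 5 were higher with refeeding in knockout and 6 in control liver, with sums of 2802 to 3114 and 2648 to 3157 in refed, against 1542 to 2220 and 1531 to 1909 in fasted libraries of the same genotypes. Endothelial markers gave 1 higher and 1 lower of 8 in knockout and 1 higher and 3 lower in control liver, and stellate markers 2 higher of 8 in knockout and 1 in control liver, with 0 lower. Enterocyte markers gave 1 higher and 2 lower of 6 in knockout and 2 higher and 1 lower in control liver, and Kupffer and macrophage markers 1 higher of 4 in knockout and 0 in control liver, with 0 lower. No measured marker was at 0 in every library, and the part of these shifts in the values at Apoa5 was not tested.

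**Figure D2:**
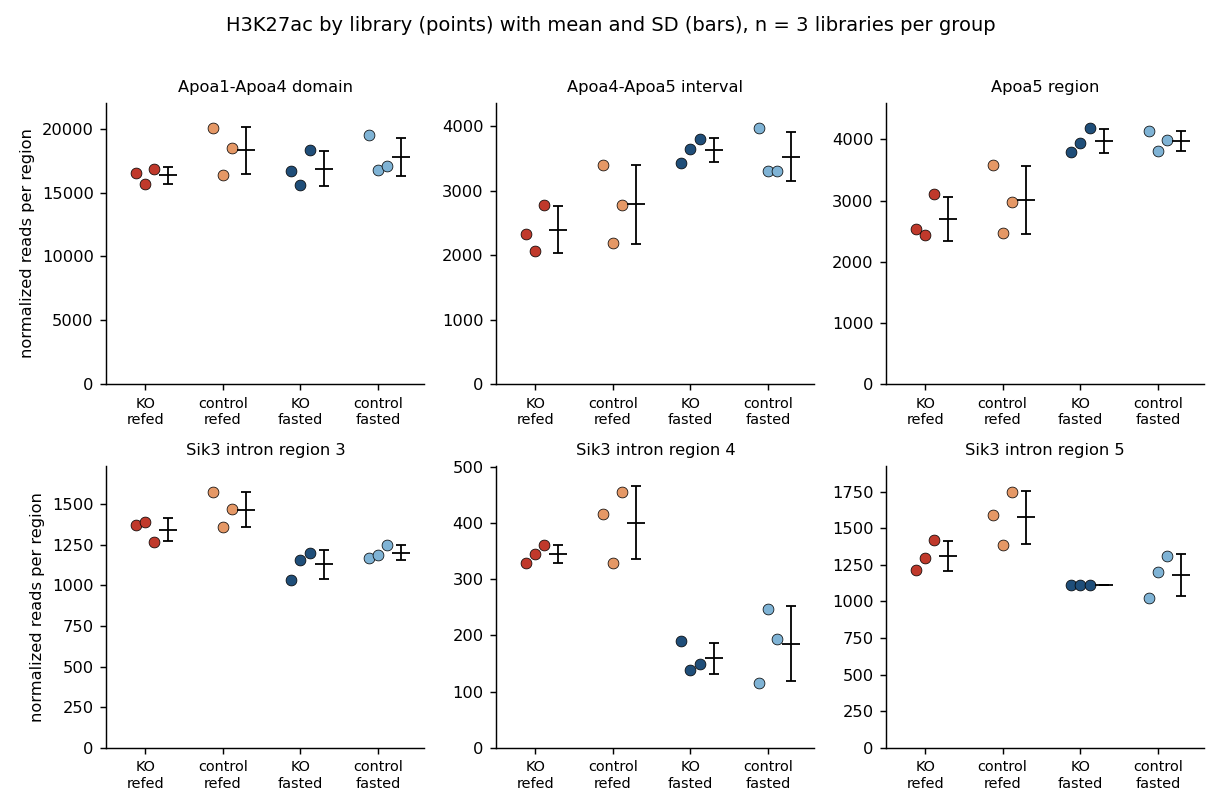
Normalized reads per region (vertical axes, from 0) in each library (points) with the mean and SD of each group (bars beside the points) for 6 regions, in the order knockout (KO) refed, control refed, KO fasted and control fasted. Refed libraries lie below fasted ones at the Apoa5 region (2444 to 3574 against 3796 to 4182) and above them at Sik3 intron region 4 (330 to 456 against 115 to 248), while all 4 groups overlap at the Apoa1-Apoa4 domain.

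The domain that holds the Apoa1 and Apoa4 start sites did not pass the test for refeeding in either genotype. Knockout libraries held 16550, 15643 and 16883 normalized reads when refed, against 16702, 15619 and 18348 when fasted. Control libraries held 20048, 16369 and 18521 when refed, against 19495, 16787 and 17072 when fasted. The groups overlapped in both genotypes. The log2 change with refeeding was -0.04 ± 0.08 in knockout (95% interval -0.21 to 0.12, limma adjusted p = 0.73) and 0.04 ± 0.08 in control liver (-0.13 to 0.21, limma adjusted p = 0.739). For this total, falls as large as that fitted at the Apoa5 region lie outside both intervals. The value is a total over the whole width of the domain, so a change limited to part of it, such as a promoter, can be missed.

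Because the Apoa5 region and the domain were read in the same libraries, their ratio within a library is free of the scaling between libraries. This ratio was chosen after the values had been seen, so the tests on it add no independent support for the falls. The log2 ratio of the Apoa5 region to the domain was -2.71, -2.68 and -2.44 in knockout refed, against -2.14, -1.99 and -2.13 in knockout fasted libraries. It was -2.49, -2.73 and -2.64 in control refed, against -2.24, -2.14 and -2.09 in control fasted libraries. Every refed ratio was below every fasted one, with a difference of -0.52 in knockout, -0.46 in control and -0.49 over both genotypes (two-sided exact permutation test within genotype, n = 3 per group, p = 0.005, the smallest the 400 arrangements allow). The interval gave -0.48 over both genotypes (exact permutation p = 0.005), with -0.56 in knockout and -0.40 in control liver. When each library was left out in turn, the differences stayed between -0.53 and -0.46 for the Apoa5 region and between -0.53 and -0.44 for the interval.

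**Figure D3:**
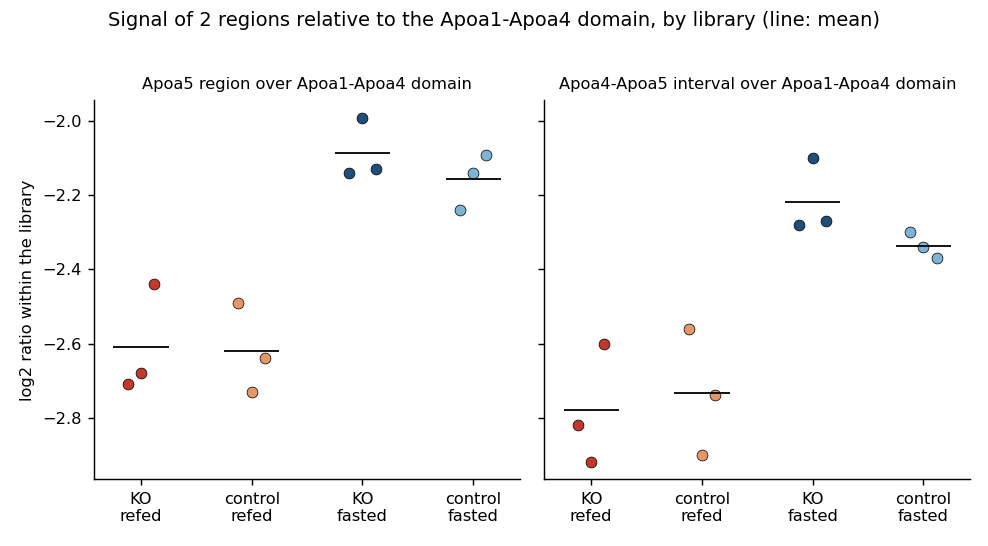
Log2 ratio within each library (vertical axes) of the Apoa5 region and of the Apoa4-Apoa5 interval to the Apoa1-Apoa4 domain, with points for libraries and lines for group means (n = 3). Refed libraries span -2.73 to -2.44 and fasted libraries -2.24 to -1.99 for the Apoa5 region, with no overlap.

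On the far side of the domain, 3 regions in intron 3 of Sik3, assigned to Apoa1 by their nearest start site, rose with refeeding in control liver, and 2 of them also in knockout liver. Sik3 intron region 4 (mm9, chr9:45946537-45950523), 86.2 to 90.2 kb upstream of the Apoa1 start site, changed most. Knockout libraries held 330, 345 and 362 normalized reads when refed, against 190, 138 and 150 when fasted, and control libraries held 417, 330 and 456 when refed, against 115, 248 and 193 when fasted. The feeding states did not overlap in either genotype. The region rose by 1.13 ± 0.22 on the log2 scale in knockout (95% interval 0.65 to 1.60, limma adjusted p = 0.00188) and by 1.17 ± 0.22 in control liver (0.69 to 1.64, limma adjusted p = 0.00103), which is 2.18-fold and 2.24-fold. The interaction was -0.04 ± 0.31 (95% interval -0.71 to 0.63, limma adjusted p = 0.985).

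Sik3 intron region 3 (mm9, chr9:45932000-45938994) held 1373, 1392 and 1264 normalized reads in knockout refed, against 1030, 1157 and 1202 in knockout fasted libraries. It held 1576, 1357 and 1468 in control refed, against 1167, 1187 and 1251 in control fasted libraries. The states did not overlap, and the region passed the test in knockout (0.25 ± 0.08, limma adjusted p = 0.0417) and control liver (0.29 ± 0.08, limma adjusted p = 0.0187). These were the weakest calls of the cluster. The call in knockout liver was lost with median-ratio scaling (adjusted p = 0.108), quantile normalization (0.0818), edgeR (0.122) or only the compared groups in the fit (0.0509), and the call in control liver was lost with quantile normalization (0.055). Leaving out 1 library also ended it for 5 of the 12 libraries in knockout liver (knockout refed replicates 1 and 2, knockout fasted replicates 1 and 2 and control refed replicate 3, adjusted p up to 0.169) and for 3 in control liver (control refed replicates 1 and 3 and control fasted replicate 1, adjusted p up to 0.0754).

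Sik3 intron region 5 (mm9, chr9:45952816-45961697) held 1216, 1299 and 1420 normalized reads in knockout refed, against 1114, 1111 and 1110 in knockout fasted libraries, and 1590, 1385 and 1748 in control refed, against 1026, 1197 and 1312 in control fasted libraries. It rose in control liver (0.42 ± 0.10, 95% interval 0.20 to 0.64, limma adjusted p = 0.00641). In knockout liver the log2 change was 0.24 ± 0.10 (0.01 to 0.46) and did not pass (limma adjusted p = 0.113), although the states did not overlap. The difference between the genotypes was -0.18 ± 0.15 (interaction, limma adjusted p = 0.751) and was not shown.

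Counted over the cluster, refeeding called 2 regions higher and 2 lower of 18 in knockout liver, where 24.7% of all 63686 regions were called, 13.3% higher and 11.4% lower. In control liver it called 3 higher and 1 lower, where 30.0% of all regions were called, 13.2% higher and 16.8% lower. The counts of 4 of 18 are thus near the background of the whole table. The median log2 change of the 18 regions was -0.19 in knockout and -0.05 in control liver, against 0.023 and -0.029 over all regions. The interaction called 0 of 18 regions, and 0.0236% of all regions, by limma (1 of 18 at an unadjusted p under 0.05, Sik3 intron region 13, against 9.54% of all regions, and 0 called by edgeR).

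Among the remaining regions, Sik3 intron regions 1, 9, 10 and 12 averaged 159, 97.1, 211 and 196 normalized reads and passed no test. The others averaged less than the median region. Sik3 intron regions 2, 6 and 14, of 343 to 379 bp, averaged 15.2 to 17.3 normalized reads, and Sik3 intron region 6 held 0 reads in 1 library, so their intervals spanned several-fold changes. The weak Apoa4 region held 23.6, 38.7 and 76.4 normalized reads in knockout refed, against 71.4, 98.0 and 43.3 in knockout fasted libraries, and 27.6, 13.0 and 34.6 in control refed, against 54.9, 40.4 and 51.6 in control fasted libraries. In control liver the states did not overlap, but its log2 change of -1.03 ± 0.43 (95% interval -1.95 to -0.11) did not pass (limma adjusted p = 0.0849). For this region the authors' deposited table lists an adjusted p of 0.0205 for the same comparison. The authors' deposited table also lists 0.000102 for Sik3 intron region 4 and 0.0226 for Sik3 intron region 5, and no value under its limit of 0.05 for the Apoa5 region or Sik3 intron region 3.

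**Figure D4:**
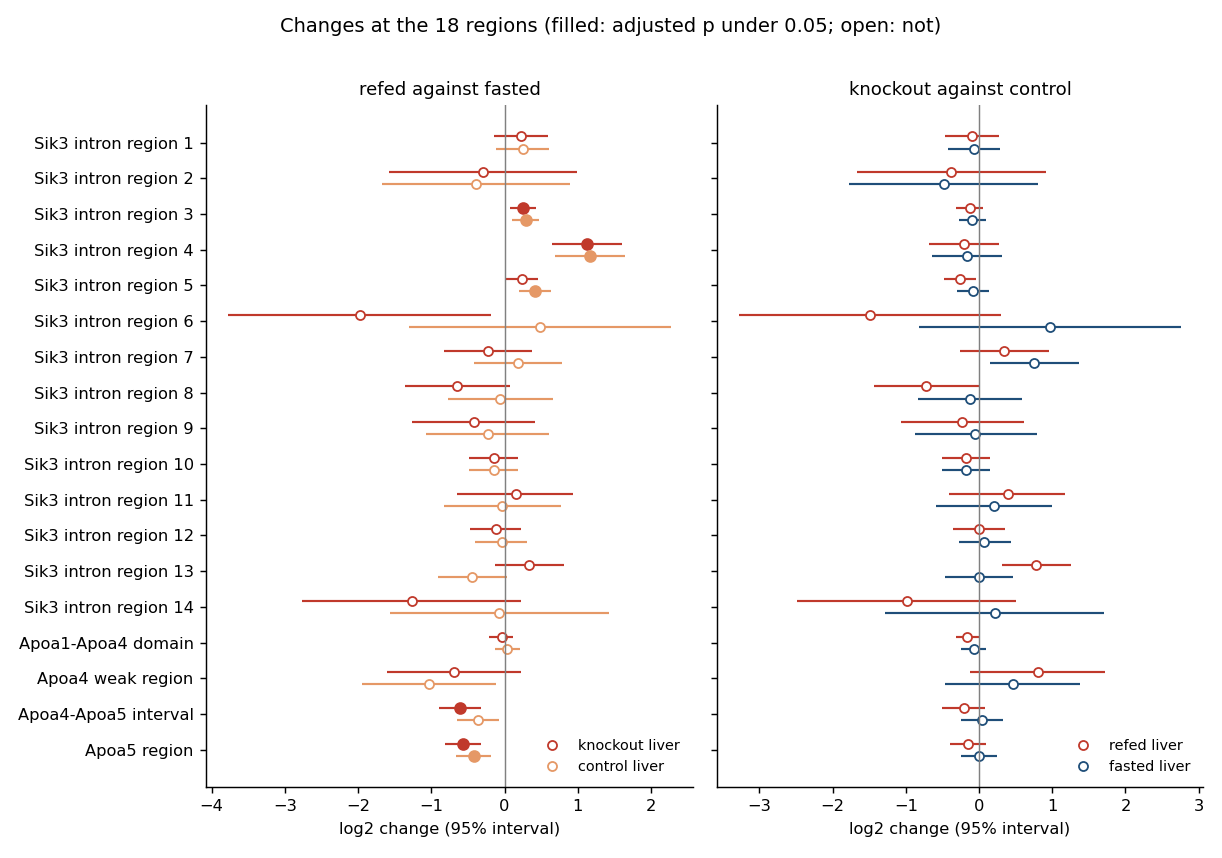
Log2 change (horizontal axes, bars are 95% intervals) of each of the 18 regions, listed in genome order, with refed against fasted liver at the left and knockout against control liver at the right. Filled points passed an adjusted p of 0.05 and open points did not: 4 regions in knockout and 4 in control liver for refeeding, and 0 for knockout in either feeding state.

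Knockout and control libraries were compared within each feeding state to ask whether loss of Gata4 from hepatocytes goes with a change of acetylation at the cluster. None of the 18 regions passed the test. In refed liver limma called 0 of 18, where 2.02% of all regions were called, with 3 of 18 at an unadjusted p under 0.05 (11450 of 63686 over all regions) and a lowest adjusted p of 0.0811. In fasted liver it called 0 of 18, where 0.557% of all regions were called, with 1 of 18 at an unadjusted p under 0.05 (13.3% of all regions). Averaged over feeding states it called 0 of 18, against 3.88% of all regions, with 3 of 18 at an unadjusted p under 0.05 (21.6% of all regions), and edgeR also called 0 in each of these comparisons. The median log2 change of the 18 was -0.17 in refed and -0.02 in fasted liver, against 0.105 and 0.041 over all regions.

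For the domain, which holds the Apoa1 promoter, the knockout change was -0.16 ± 0.08 in refed (95% interval -0.32 to 0.01, limma adjusted p = 0.3) and -0.07 ± 0.08 in fasted liver (-0.24 to 0.09, limma adjusted p = 0.742). Averaged over both states it was -0.12 ± 0.05 (-0.23 to 0.00, limma adjusted p = 0.234). These are changes of the total over the whole domain, and the Apoa1 promoter was not measured by itself. The refed value was -0.25 with median-ratio scaling, -0.24 with edgeR and -0.07 with quantile normalization, and it passed in none of them. These scalings move the median of all regions as well, which was 0.105 with the authors' scaling, 0.016 with median-ratio scaling, 0.037 with edgeR and -0.015 with quantile normalization. Over the strongest regions of all genes, the median for knockout in refed liver with the authors' scaling was -0.002. Beside these values, refed knockout libraries were shallower than refed control libraries, and their hepatocyte marker sums did not overlap. Of the 9 markers 1 was called lower, Hnf4a, where 1.54% of the strongest regions of all genes were called. The part of depth or of marker signal in these values was not tested.

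The Apoa5 region changed by -0.15 ± 0.11 in refed knockout liver (95% interval -0.39 to 0.10, limma adjusted p = 0.543) and by -0.00 ± 0.11 in fasted knockout liver (-0.25 to 0.24, limma adjusted p = 0.996). The interval changed by -0.21 ± 0.14 in refed (limma adjusted p = 0.459) and by 0.04 ± 0.14 in fasted knockout liver (limma adjusted p = 0.932). With each library left out, the refed knockout values ranged from -0.28 to -0.01 at the Apoa5 region, from -0.37 to -0.05 at the interval and from -0.24 to -0.09 at the domain, and none passed. Changes of the size of the fitted refeeding fall thus lie outside the fasted intervals of the Apoa5 region. The region with the lowest adjusted p for knockout in refed liver, Sik3 intron region 13, held 107, 106 and 113 normalized reads in knockout refed, against 70.2, 46.4 and 76.4 in control refed libraries (0.78 ± 0.22, limma adjusted p = 0.0811). It held 105, 74.8 and 80.3 in knockout fasted, against 86.0, 102 and 72.3 in control fasted libraries, which overlap. Both it and Sik3 intron region 6 were named after their values had been seen.

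A deposited column lists GATA4 ChIP peaks that lie at most 500 bp from a region, and it was empty for all 18 regions. Of all regions 8.31% had such a peak, and of the 2178 regions of at least 10 kb, 37.7% had one. Of the 18 regions only the domain and the interval are that wide. At these shares so few regions can all lack a peak, so the empty column does not set the cluster apart. The libraries behind these peaks are not part of the series. The authors' 4 deposited tables of knockout and interaction comparisons, which list 301 to 4200 regions each, held none of the 18 regions. The deposited H3K27ac signal covers 63686 regions, so lists of this length can lack all 18. Their absence does not set the cluster apart.

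Outside the cluster, 19 further regions lay within 100 kb of its outermost regions, 15 toward the Sik3 start and 4 beyond Apoa5 toward Bud13, a splicing-related gene. With refeeding 1 of the 19 was called higher and 3 lower in knockout (24.7% of all regions called), and 1 higher and 2 lower in control liver (30.0%), with medians of -0.11 and -0.15. For knockout 1 was called higher in refed (2.02%) and 0 in fasted liver (0.557%), and 1 higher and 1 lower over the average of both states (3.88%). Toward the Sik3 start, the region centred at -164.1 kb (mean 39.0 normalized reads) fell with refeeding in both genotypes. Its change was -1.34 in knockout (limma adjusted p = 0.00531) and -1.51 in control liver (adjusted p = 0.00176). Falls were also called at -167.0 kb in knockout (-0.51, limma adjusted p = 0.00922) and -135.5 kb in control liver (-0.8, 0.00389). Rises were at -195.2 kb in knockout (0.62, limma adjusted p = 0.0287) and -205.0 kb in control liver (0.57, 0.00788). The neighbour nearest to the Apoa5 region, centred 49.5 kb from the Apoa1 start site in an intron of Zpr1 and holding a mean of 30.6 normalized reads, fell with refeeding in knockout liver (-1.51, limma adjusted p = 0.0453), and the value in control liver was -1.24 (adjusted p = 0.085). The promoter region of Bud13, centred at 54.4 kb, gave 0.29 in knockout and 0.21 in control liver and did not pass (limma adjusted p = 0.0634 and 0.174).

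Genes whose products act on the same lipoproteins were represented by their strongest region, and the lists were chosen with earlier results known. Of 25 listed genes of triglyceride-rich lipoproteins 21 were measured. Refeeding called 6 of them higher and 5 lower in knockout liver, where 33.2% of the strongest regions of all genes were called (22.6% higher, 10.6% lower). It called 8 higher and 3 lower in control liver, where 33.4% were called (21.2% higher, 12.2% lower). Among those with the smallest adjusted p in knockout liver were the lipase gene Lpl (0.89 ± 0.17) and Creb3l3, which encodes a fasting-induced liver transcription factor (-0.48 ± 0.09, limma adjusted p = 0.00162). In control liver the smallest adjusted p belonged to Angptl8, an inhibitor of lipoprotein lipase induced by feeding (0.99 ± 0.10), Tm6sf2, which acts in very-low-density lipoprotein secretion (1.35 ± 0.19), and Lpl (0.98 ± 0.17). For knockout the list gave 0 calls in refed liver (1.54% of strongest regions) and 1 in fasted liver (0.717%), the remnant receptor gene Lrp1 (0.27 ± 0.05, limma adjusted p = 0.0258). Averaged over both states it gave 1 higher, Lrp1 (0.15 ± 0.04, limma adjusted p = 0.0332), and 1 lower (3.75% of strongest regions called). The average at Lrp1 includes the fasted libraries, and its refed means were 9957 ± 240 in knockout and 9802 ± 418 in control (SD, n = 3). The difference in refeeding change between genotypes at Angptl8 did not pass (interaction -0.66 ± 0.14, limma adjusted p = 0.101).

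Of 15 listed genes of HDL proteins and remodelling 14 were measured, and refeeding called 0 higher and 5 lower in knockout (22.6% higher and 10.6% lower over all strongest regions) and 1 higher and 5 lower in control liver (21.2% and 12.2%). Apoa2, which encodes another main HDL protein, was lower in knockout (-0.39 ± 0.06, limma adjusted p = 0.000289) and control liver (-0.46 ± 0.06, limma adjusted p = 4.84e-05). Apoa2 is also a listed hepatocyte marker, so the lower calls of the HDL and hepatocyte lists share this region. Pon1, which encodes the HDL-bound paraoxonase, was lower as well, by -0.44 ± 0.10 in knockout (limma adjusted p = 0.0043) and -0.43 ± 0.10 in control liver (limma adjusted p = 0.00382). Pltp, which encodes the phospholipid transfer protein, was the gene called higher in control liver (0.35 ± 0.10, limma adjusted p = 0.0159) and the 1 of 14 called for knockout in refed liver (1.54% of strongest regions), where it was lower (-0.57 ± 0.10, limma adjusted p = 0.0145). It was also the 1 of 14 called for knockout averaged over both states (-0.32 ± 0.07, limma adjusted p = 0.0258, 3.75% of strongest regions called). The list median with refeeding was -0.14 in knockout and -0.12 in control liver, against 0.133 and 0.111 over the strongest regions of all genes, and the Apoa1 domain, at -0.04 and 0.04, did not pass.

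Of 29 listed transcriptional regulators of lipoprotein genes and liver metabolism all were measured, and refeeding called 5 higher and 4 lower in knockout (33.2% of all strongest regions called) and 7 higher and 2 lower in control liver (33.4%), near the background. The strongest calls were Srebf1, which encodes a regulator of fatty acid synthesis (0.87 ± 0.10 in knockout and 1.06 ± 0.10 in control liver), and Gata4 (0.43 ± 0.06 and 0.47 ± 0.06). Creb3l3 stands in this list and in that of triglyceride-rich lipoproteins, so its fall with refeeding is counted in both. For knockout in refed liver 1 of 29 regulators was called (1.54% of strongest regions), Hnf4a, which encodes a nuclear receptor that activates apolipoprotein genes in hepatocytes (-0.27 ± 0.05, limma adjusted p = 0.0229). The same region is the hepatocyte marker called lower in that comparison, so the 2 lists do not give separate calls. In fasted liver 0 of 29 were called, with -0.17 ± 0.05 at Hnf4a (limma adjusted p = 0.181). Averaged over both states, where 3.75% of strongest regions were called, 2 of 29 were lower, Hnf4a (-0.22 ± 0.04, limma adjusted p = 0.00926) and Ppargc1a, which encodes a fasting-induced coactivator (-0.30 ± 0.08, limma adjusted p = 0.0452).

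Regions of other genes with the most similar pattern were found by the root-mean-square difference between log2 profiles over the 12 libraries, each centred on its own mean. The domain was most like regions of Gpc4 (0.056), Got2 (0.057) and Slc10a1, which encodes the hepatocyte bile acid importer (0.066). The Apoa5 region was most like regions of Pbld1 (0.09), Reg4 (0.091) and Acsm3, a medium-chain acyl-CoA synthetase gene (0.092). At the Acsm3 region the refeeding change was -0.67 in knockout and -0.58 in control liver. The nearest profiles to the weak Apoa4 region were far less alike, from 0.361 for Itih2 to 0.378 for Mon2. Only regions with a mean at or above that of the median region, 90.6, were searched. The weak Apoa4 region averaged 47.8, with 14 to 89 reads per library, so regions of its own depth were left out.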

How the data were processed

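The authors deposited H3K27ac signal for 63686 regions in 12 libraries. Bowtie2, MACS2, DiffBind, edgeR, HOMER, deepTools, bedtools, SAMtools, Trim Galore and FastQC are named without versions, and mm9 as the build, per the submitters' processing notes. Whether input reads were subtracted, and how reads that map to several places were counted, is not given in the sources used here. Each deposited value was a whole number of reads divided by 1 factor per library (100% of values within 0.01 of a whole read), with 0.836 to 1.15 per read, and every library had the same total. Per the file headers HOMER named the nearest start site and the annotation of each region. The authors' adjusted p-values were deposited only where under 0.05. The 12 input libraries were not analysed here.

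limma 3.58.1 (R 4.3.3) was fitted on log2(value + 1) with an intensity trend, for all 12 libraries and 4 groups, and p-values were adjusted over all regions. A region was called at an adjusted p under 0.05. Log2 changes of low regions are understated by the pseudocount. Other settings were a pseudocount of 5 or 0.5, a filter on regions of low mean, median-ratio scaling, quantile normalization, edgeR 4.0.16 quasi-likelihood on the recovered reads (it called 607 regions for knockout in refed liver), only the compared groups, and each library left out. The code was tested on simulated data. No batch is labelled.

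Members and lists were chosen with earlier results of these data known. Named were all member regions, regions within 100 kb, the 3 genes most like each member, and the 3 smallest adjusted p per list and comparison. A gene was represented by its region with the highest mean. A gene that the rule named is not reported here.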

Additional observations from a re-analysis of the deposited data

How the results depend on the processing

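No paired analysis was possible because replicates are numbered in accession order and no label pairs libraries across groups. With 7 other settings (6 for the interaction and the average over feeding states, which need all groups) and each of 12 libraries left out, knockout and the interaction called 0 of 18 regions, and the Apoa5 region fell with refeeding in knockout liver. Regions called in the whole table moved more. Knockout in fasted liver called 355 regions, and 59 with only the compared groups. Knockout in refed liver called 1289 (1100 higher, 189 lower), and 702 (475 and 227) with median-ratio scaling, 324 (219 and 105) with quantile normalization, 607 (437 and 170) with edgeR and 673 (514 and 159) with only the compared groups. The interaction called 15, and 28 with a pseudocount of 5. The average over feeding states called 2473 (1906 higher, 567 lower), and 1289 (742 and 547) with quantile normalization, 2140 (1092 and 1048) with median-ratio scaling and 2210 (1284 and 926) with edgeR. Leaving out each library gave 105 to 918 for knockout in fasted liver, 365 to 1423 in refed liver, 891 to 2545 for their average and 9 to 148 for the interaction. With quantile normalization the sign turned for values near 0: the domain gave 0.01 and the Apoa5 region 0.00 for knockout in fasted liver, and the domain gave 0.05 for refeeding in knockout liver. Leaving out each library gave -0.56 to -0.29 at the Apoa5 region and -0.51 to -0.19 at the interval for refeeding in control liver. For refeeding the domain gave -0.10 to 0.02 in knockout and -0.03 to 0.12 in control liver. For knockout in fasted liver the Apoa5 region gave -0.04 to 0.03, the interval -0.00 to 0.13, and Sik3 intron regions 4 and 5 gave -0.47 to 0.08 and -0.17 to 0.00. The interaction gave -0.10 to 0.02 at Sik3 intron region 3 and -0.28 to 0.27 at Sik3 intron region 4. The cause of these shifts was not tested. Regions of 0 to 32 reads, such as Sik3 intron region 6, limit what could be detected there.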
